A study of Mus musculus with 88 samples.

Results

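The mitochondrial ribosomal protein genes measured in whole blood of SNF1 mice numbered 73 of the 17097 genes on the array. A gene was a member if its symbol in the probe annotation began with Mrpl or Mrps followed by a digit, and where several probe sets were assigned to a member alone, the brightest on average across the 88 arrays stood for it. By name, 46 members belonged to the large subunit and 27 to the small subunit. Mrps18c and Mrpl45 are not analysed here, since no tested single-gene probe set is assigned to either. SNF1 mice are the F1 hybrids of SWR and NZB mice and are prone to lupus. Females were injected intraperitoneally at 9 weeks of age with pristane, a hydrocarbon oil, and blood was taken 2, 4, 8, 12 and 14 weeks later, with age-matched untreated SNF1 mice as controls. A further group of 36-week-old untreated females had spontaneous disease and was selected by proteinuria, so age and disease cannot be told apart in that group. Each of the 11 groups held 8 arrays, read here as 1 mouse each. The labels do not say whether a mouse was bled at more than 1 week, and the main fits treated all arrays as independent. Nor do the labels say which mice shared a cage, an experiment or an array plate.

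Mitochondrial ribosomes translate the few proteins encoded by mitochondrial DNA, all of them subunits of the oxidative phosphorylation complexes. Their proteins are encoded in the nucleus, made in the cytosol and imported. Part of them descend from bacterial ribosomal proteins and part are found in mitochondria alone, and by the numbering of their names 43 members were of the bacterial type and 30 mitochondria-specific. Some names no longer fit the structure: the proteins of Mrps30 and Mrps18a sit in the large subunit of the mammalian mitoribosome, and the protein of Mrps36 works in the 2-oxoglutarate dehydrogenase complex. In blood, mature red cells have lost their mitochondria, while lymphocytes, monocytes and platelets keep them. In a bulk sample, fewer cells of a type and less RNA per cell cannot be told apart.

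Promoter windows from RefSeq (GRCm38.p6), 250 bases before to 50 after the start, were found for 65 of 73 members, in 71 windows. Each was searched on both strands for the ETS core CCGGAAG, to which factors such as GABP bind, the NRF1 core GCATGCGC and the YY1 site AAGATGGC, which are known from promoters of nuclear genes for mitochondrial proteins. The ETS core was in 32.4% of the members' windows and in 8.86% of all 32851 windows of that length. The NRF1 core was in 9.86% and 2.71%, and the YY1 site in 16.9% and 2.75%. At least 1 of these was in 49.3% of members' windows and in 13.3% of all. A TATA box, TATAAA, was in 7.04% of members' windows and 13.6% of all, and these shares are descriptions of letters, not of bound sites. The windows shown belong to the members that carried the results, Mrps33 and Mrpl50 (lower at week 14) and Mrpl33 (higher at weeks 2 to 8), and to the paralogues Mrps18b and Mrps18a, which differed in whether they passed the test. Capitals mark matches to these 3 motifs on either strand. The windows lie at chr6:39810887-39811186 (minus strand), chr4:49521034-49521333 (minus strand), chr5:31613701-31614000 (plus strand), chr17:35916391-35916690 (minus strand) and chr17:46110754-46111053 (plus strand).
Mrps33: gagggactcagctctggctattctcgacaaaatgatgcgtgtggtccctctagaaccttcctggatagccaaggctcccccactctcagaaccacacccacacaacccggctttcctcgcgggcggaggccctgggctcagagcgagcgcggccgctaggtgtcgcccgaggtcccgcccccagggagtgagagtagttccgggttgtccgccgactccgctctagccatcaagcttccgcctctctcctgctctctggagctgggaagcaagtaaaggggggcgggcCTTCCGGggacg
Mrpl50: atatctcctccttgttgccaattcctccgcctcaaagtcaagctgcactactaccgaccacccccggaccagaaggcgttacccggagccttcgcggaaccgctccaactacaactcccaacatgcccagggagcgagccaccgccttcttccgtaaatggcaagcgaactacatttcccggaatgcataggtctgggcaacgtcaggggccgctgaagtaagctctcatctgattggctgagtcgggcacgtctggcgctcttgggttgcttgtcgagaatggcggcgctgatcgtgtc
Mrpl33: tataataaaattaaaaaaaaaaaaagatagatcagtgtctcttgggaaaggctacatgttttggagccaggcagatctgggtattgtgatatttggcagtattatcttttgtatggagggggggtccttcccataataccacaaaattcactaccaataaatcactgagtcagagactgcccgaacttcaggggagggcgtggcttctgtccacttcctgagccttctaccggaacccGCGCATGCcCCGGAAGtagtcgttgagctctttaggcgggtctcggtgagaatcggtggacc
Mrps18b: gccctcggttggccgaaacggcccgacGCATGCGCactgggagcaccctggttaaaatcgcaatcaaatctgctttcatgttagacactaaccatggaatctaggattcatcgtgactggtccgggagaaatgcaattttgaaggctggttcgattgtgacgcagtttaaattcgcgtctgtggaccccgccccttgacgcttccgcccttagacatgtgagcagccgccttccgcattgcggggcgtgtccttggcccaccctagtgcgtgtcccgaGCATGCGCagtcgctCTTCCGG
Mrps18a: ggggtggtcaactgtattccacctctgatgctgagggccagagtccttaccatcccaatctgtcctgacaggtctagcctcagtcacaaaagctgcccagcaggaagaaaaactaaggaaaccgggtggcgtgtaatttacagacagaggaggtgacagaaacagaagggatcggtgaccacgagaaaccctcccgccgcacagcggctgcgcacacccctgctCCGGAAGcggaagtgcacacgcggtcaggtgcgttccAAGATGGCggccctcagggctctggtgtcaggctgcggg
The window of Mrps33 held 1 ETS core, those of Mrpl33 and Mrps18a held 2 matches, and that of Mrps18b held 3. The window of Mrpl50 held none of these letters.

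Signals were log2 RMA values, on which a difference of 1 is 2-fold. The members' means over all arrays ran from 3.10 for Mrpl47 to 9.15 for Mrpl24, and 66 members lay above 5. Levels of different probe sets are not comparable. Pairs of arrays correlated at 0.90 to 0.994, and the interquartile range of an array's values ran from 2.74 to 3.78. The mean of the 73 members on an array followed that range closely (Pearson r = 0.885 over 88 arrays, which share processing and groups, so no p is given). The whole-blood label was checked against marker lists. None of the 9 measured mature neutrophil, 10 platelet, 10 T cell, 8 NK cell or 6 monocyte markers had a mean below the median of all values, 3.89, while 1 of 9 B cell, 1 of 13 erythroid and 2 of 10 immature neutrophil granule markers did.

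The mean of the 73 members was lower in pristane-treated mice than in untreated mice at each week as a group mean, with overlapping arrays. It was 6.27 ± 0.23 in pristane mice and 6.38 ± 0.11 in untreated mice at week 2 (SD, n = 8 each, as at the later weeks). At week 4 it was 6.22 ± 0.24 in pristane mice and 6.40 ± 0.19 in untreated mice, and at week 8 6.18 ± 0.24 in pristane mice and 6.39 ± 0.20 in untreated mice. At week 12 it was 6.31 ± 0.18 in pristane mice and 6.49 ± 0.21 in untreated mice, and at week 14 6.39 ± 0.12 in pristane mice and 6.64 ± 0.20 in untreated mice. The spontaneous group averaged 6.55 ± 0.18. The highest mean was thus in untreated mice of week 14, and the lowest in pristane mice of week 8. The array interquartile range averaged 3.25 at week 14 under pristane and 3.53 in the untreated mice of that week, its highest group mean, and it was 3.45 in the spontaneous group. Gene by gene, 31 of 73 members (42.5%) had their highest group mean in untreated mice of week 14, against 18% of all genes and 32% of genes with a mean above 5. The lowest group mean fell in pristane mice of week 8 for 19 members (26%, against 9.69% of all genes and 15.1% of genes above 5), of week 4 for 16 (21.9%, against 6.35% and 10.3%) and of week 14 for 11 (15.1%, against 9.5% and 13.9%).

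**Figure D1:**
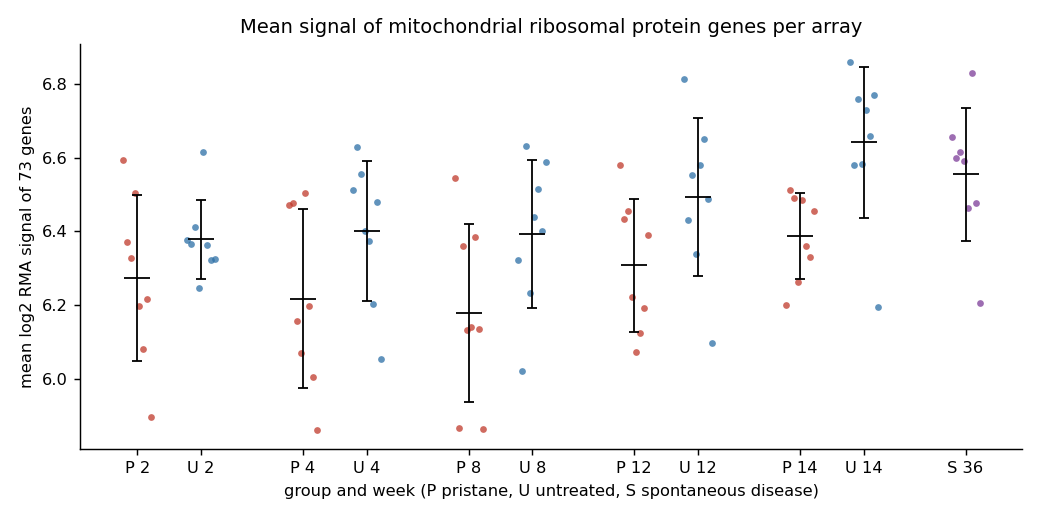
Mean log2 RMA signal of the 73 genes on each array (points), with the mean and SD of each group of 8 (bars), by group and week. The groups overlap at every week, and 1 untreated array of week 14, at 6.19, lies apart from the other 7 of its group.

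The comparison of week 14 addressed the latest stage sampled after the injection. Of 73 members, 16 were lower in pristane-treated mice and 0 were higher at an adjusted p under 0.05 (limma, Benjamini-Hochberg over 45037 probe sets). That is 21.9% lower, against 9.72% lower and 12.7% higher over all genes. At an unadjusted p under 0.05, 26 were lower and 1 was higher, where all genes had 14.5% lower and 22.5% higher. Among genes with a mean above 5, 18.3% were lower and 13.6% higher, and 15 of the 66 members above 5 were lower (22.7%). The median difference was -0.22 over the members, +0.12 over all genes and -0.08 over genes above 5. On its main probe set, no member changed more than 2-fold, against 1.93% of all genes lower and 1.87% higher. No member's groups were fully apart, and 1.27% of all genes had every pristane array below and 0.883% above every untreated array. With 73 members, a count of 0 is near such small shares. By name, 9 of 46 large-subunit and 7 of 27 small-subunit members were lower. By origin, 9 of 43 bacterial-type and 7 of 30 mitochondria-specific members were lower. The shares to set beside these counts are again 9.72% of all genes and 18.3% of genes above 5, and differences between the classes were not tested.

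Mrps33, a small mitochondria-specific protein of the small subunit, had the largest t. It ran from 6.74 to 8.19 (median 7.19) in pristane mice, against 7.77 to 8.37 (median 8.13) in untreated mice. The pristane arrays were widely spread, 5 of 8 below every untreated array and 3 within their range. The difference was -0.71 ± 0.17 (SE), 1.64-fold lower (adjusted p = 0.00113). Mrpl50, a mitochondria-specific protein of the large subunit, ran from 3.33 to 4.68 (median 4.27) in pristane mice, against 4.28 to 5.37 (median 5.14) in untreated mice. All 8 pristane arrays lay below the untreated median, and 4 lay below every untreated array. It was 1.77-fold lower (difference -0.83 ± 0.20, adjusted p = 0.00153), and its second probe set was lower too (-0.74, adjusted p = 0.0234).

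Mrpl40, another mitochondria-specific large-subunit protein, ran from 4.66 to 7.14 (median 6.10) in pristane mice, against 6.73 to 7.16 (median 6.94) in untreated mice. One pristane array reached the untreated range and 7 lay below it (-0.90 ± 0.24, adjusted p = 0.00368). Mrps17, a homologue of bacterial S17, ran from 5.39 to 7.06 (median 6.27) in pristane mice, against 7.04 to 7.45 (median 7.18) in untreated mice. Its groups met at a single array, and its difference was the largest of the 16 (-0.94 ± 0.28, 1.91-fold lower, adjusted p = 0.0106). Mrps30, whose protein sits in the large subunit, ran from 7.70 to 8.88 (median 8.13) in pristane mice, against 8.73 to 9.17 (median 8.98) in untreated mice. Here too 7 of 8 pristane arrays lay below every untreated array (-0.79 ± 0.24, adjusted p = 0.0115).

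The Mrps18 paralogues both descend from bacterial S18 and occupy different places in the mitoribosome. Mrps18b ran from 6.37 to 7.39 (median 6.81) in pristane mice, against 7.17 to 7.74 (median 7.44) in untreated mice, with 6 pristane arrays below every untreated array (-0.59 ± 0.18, adjusted p = 0.0111). Mrps18a ran from 4.75 to 6.32 (median 5.66) in pristane mice, against 5.41 to 6.25 (median 5.69) in untreated mice. The arrays of Mrps18a were interleaved (-0.12, 95% CI -0.52 to 0.28, adjusted p = 0.694), and the difference between the paralogues was not tested.

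Of the remaining named members, Mrpl42 ran from 5.93 to 6.97 (median 6.57) in pristane mice, against 5.81 to 8.03 (median 7.47) in untreated mice. Its lowest array was an untreated one, the array that also had the lowest member mean of its group (-0.76 ± 0.23, adjusted p = 0.0119). Mrpl24, the homologue of bacterial L24, ran from 8.47 to 9.37 (median 8.98) in pristane mice, against 8.87 to 10.10 (median 9.63) in untreated mice (-0.62 ± 0.19, adjusted p = 0.0123). Mrpl16 and Mrpl27, homologues of the bacterial proteins of those numbers, were lower by similar amounts (-0.79 ± 0.26, adjusted p = 0.0197, and -0.78 ± 0.26, adjusted p = 0.0237). For all 4 of them every pristane array was below the median of the untreated mice, although the ranges overlapped. The other 6 lower members were Mrps25, Mrps22, Mrps10, Mrpl23, Mrpl18 and Mrpl17, with differences from -0.82 for Mrps22 to -0.43 for Mrpl17 and adjusted p from 0.0246 to 0.0479.

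**Figure D2:**
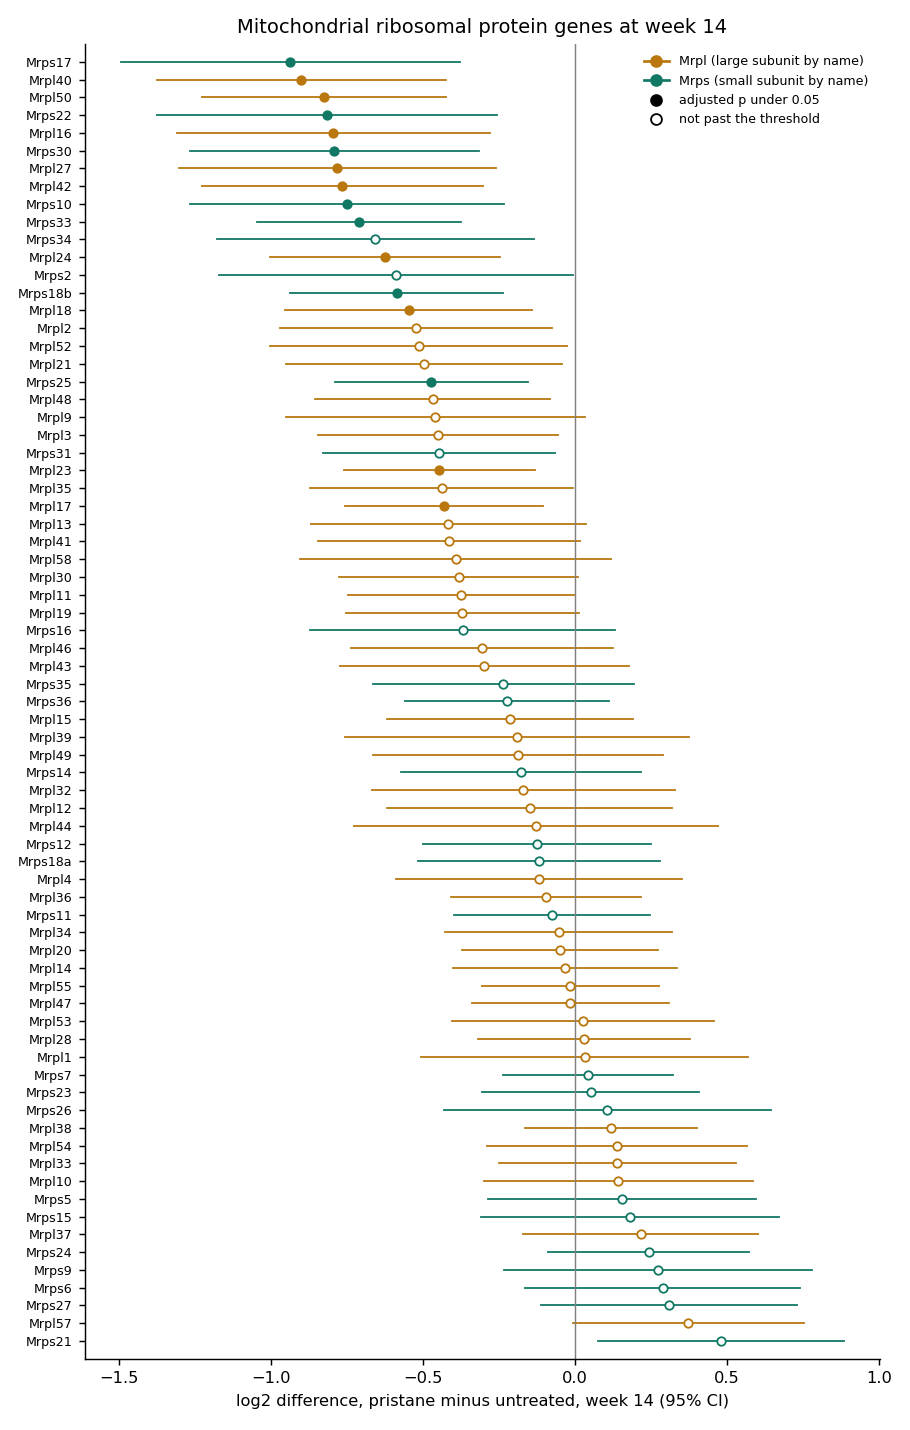
Log2 difference of each of the 73 genes at week 14, pristane minus untreated (points, with 95% confidence intervals as lines), ordered by size and coloured by subunit. The 16 filled points passed the test and all lie left of 0, from -0.94 (Mrps17) to -0.43 (Mrpl17).

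Several members with well known roles did not pass the test at week 14. Mrps12, the homologue of S12 in the decoding centre, differed by -0.13 (95% CI -0.50 to 0.25) and Mrps7, the homologue of S7, by 0.04 (-0.24 to 0.32). Mrpl12, of the factor-binding stalk, differed by -0.15 (-0.62 to 0.32), and Mrpl3, next to the peptidyl transferase centre, by -0.45 (-0.84 to -0.06, adjusted p = 0.0903). Mrps36 differed by -0.22 (-0.56 to 0.11). The largest t towards higher signal was that of Mrps21, the homologue of S21. It ran from 7.59 to 9.12 (median 7.94) in pristane mice, against 7.40 to 7.97 (median 7.52) in untreated mice, and 4 pristane arrays lay above every untreated array (0.48 ± 0.20, adjusted p = 0.0792).

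Further single-gene probe sets, 56 of 38 members, gave a less even picture at week 14, with 6 lower and 1 higher. Of the 16 lower members, 6 had 7 further probe sets, of which 1 was also lower (Mrpl50) and 3 had a negative difference. Of those without a negative difference, the sets of Mrpl42, Mrpl17 and Mrpl27 had means of 1.54, 2.43 and 2.37, below the median of all values, 3.89. Whether sets so near the bottom of the scale could show a fall was not tested. The remaining set, of Mrps25, had a mean of 4.64 and differed by 0.05. Among members that did not pass on their main probe set, a further set of Mrpl52 was lower by more than 2-fold (-1.48, adjusted p = 4.80e-04). A further set of Mrpl1 (-0.87, adjusted p = 0.0189) and a further set of Mrpl11 (-0.61, adjusted p = 0.0495) were also lower. Mrpl19 had one set lower (-0.67, adjusted p = 0.0135) and one, near the bottom of the scale with a mean of 1.81, higher (0.46, adjusted p = 6.96e-04).

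The count at week 14 depended on how the spread of the whole array was treated. With the array interquartile range as a covariate, 2 members were lower (Mrps33 and Mrpl50) and 5 were higher (Mrpl10, Mrps9, Mrps15, Mrps24 and Mrps27), with 5.22% of all genes lower and 10.4% higher in that fit. With an erythroid marker score as a covariate 3 were lower and 3 higher, of the 16 only Mrps33 (all genes 5.26% lower and 8.26% higher). After quantile normalization 9 were lower, all of them among the 16 (all genes 8.43% lower and 12% higher). With untreated mice of week 12 as the controls 2 were lower (Mrpl50 and Mrps18b) and 1 was higher (Mrpl33), where all genes had 3.87% lower and 6.53% higher. Mrps33 missed the threshold against those controls (-0.40, adjusted p = 0.131), and Mrpl50 missed it with the erythroid score (-0.48, adjusted p = 0.111). When each of the 16 arrays was left out in turn, the count ran from 11 lower (without pristane replicate 1) to 21 lower (without untreated replicate 8). Mrps33 and Mrpl50 were lower in all 16 of those fits, with adjusted p of at most 0.00693 and 0.00834. Mrpl40, Mrps17, Mrps18b, Mrps30, Mrpl42 and Mrpl24 also passed in all 16. Mrpl16 was lost without pristane replicate 6 or untreated replicate 1, Mrpl27 without pristane replicate 1 or 4 or untreated replicate 5, and Mrps25 without untreated replicate 7. Mrps22, Mrps10, Mrpl23, Mrpl18 and Mrpl17 were lost in 4, 5, 7, 10 and 10 of the 16 fits, including that without pristane replicate 1 for all 5.

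**Figure D3:**
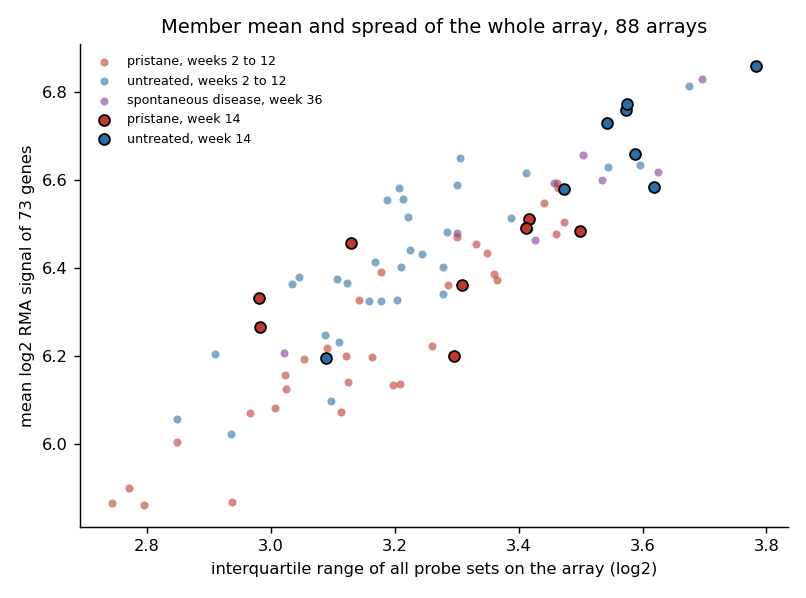
Mean signal of the 73 genes against the interquartile range of all probe sets on the same array, for 88 arrays coloured by treatment, with the week 14 arrays outlined. The points lie along a band (r = 0.885), and 7 of the 8 untreated arrays of week 14 lie above every pristane array of that week, with the other at 6.19.

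Markers of blood cell types moved at week 14 as well. Lower were 6 of 9 B cell, 5 of 10 T cell, 3 of 8 NK cell and 1 of 6 monocyte markers. Higher were 10 of 10 platelet, 7 of 9 mature neutrophil, 8 of 10 immature neutrophil granule, 6 of 13 erythroid and 1 of 8 NK cell markers. The mean of the B cell markers ran from 7.34 to 8.74 in pristane mice, against 8.39 to 9.06 in untreated mice, and that of the platelet markers from 9.87 to 10.97 in pristane mice, against 9.21 to 9.88 in untreated mice. The erythroid mean ran from 9.20 to 10.72 in pristane mice, against 8.54 to 9.77 in untreated mice. The part of cell makeup in the members' differences was not tested beyond the erythroid score.

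Genes of 5 related lists were counted in the same fit at week 14, in which 9.72% of all genes were lower and 12.7% higher. Among genes with a mean above 5, 18.3% were lower and 13.6% higher. The counts in the 5 lists are small beside these shares and are given as descriptions. Of 16 genes of mitochondrial transcription and RNA, 3 were lower, led by Gabpa, the DNA-binding subunit of GABP (5.07 in pristane mice, against 5.91 in untreated mice, -0.84, adjusted p = 0.00128), and Twnk, the mitochondrial DNA helicase (6.84 in pristane mice, against 7.40 in untreated mice, -0.56, adjusted p = 0.00976). Gabpb1, of the same factor (-0.54, adjusted p = 0.0620), Nrf1 (-0.38, adjusted p = 0.102) and Yy1 (-0.28, adjusted p = 0.185) did not pass. Whether any of these factors bears on the members was not tested. Of 17 assembly factors, 2 were lower, Mrm2, an rRNA methyltransferase (-0.65, adjusted p = 0.00158), and the GTPase Noa1 (-0.79, adjusted p = 0.0119). One of 9 translation factors was lower (Guf1), 1 of 15 mitochondrial aminoacyl-tRNA synthetases was higher (Fars2), and 0 of 4 other mitoribosome proteins passed. Of 70 cytosolic ribosomal proteins, measured as a neighbouring class, 39 were lower and 0 higher, with a median of -0.30. Whether the members and these lists differed in their response was not tested.

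At the earlier weeks few members passed, and 1 of them repeatedly. Mrpl33, the homologue of bacterial L33, was higher in pristane mice at weeks 2, 4 and 8. At week 2 it ran from 8.27 to 9.30 (median 8.40) in pristane mice, against 7.38 to 8.03 (median 7.74) in untreated mice. All 8 pristane arrays lay above all untreated arrays, which held for 0.69% of all genes (0.93 ± 0.20, 1.91-fold, adjusted p = 0.00128). At week 4 it ran from 8.05 to 9.74 (median 8.81) in pristane mice, against 7.84 to 8.34 (median 8.18) in untreated mice, with 6 of 8 pristane arrays above every untreated array (0.72 ± 0.20, adjusted p = 0.0257). At week 8 it ran from 8.60 to 9.62 (median 9.07) in pristane mice, against 7.89 to 8.81 (median 8.27) in untreated mice, again with 6 above (0.77 ± 0.20, adjusted p = 0.0133). By week 12 the difference was 0.53 (95% CI 0.14 to 0.92, adjusted p = 0.142) and by week 14 0.14 (-0.25 to 0.53, adjusted p = 0.636). The group means of Mrpl33 were 8.64, 8.87, 9.11, 8.80 and 8.85 in pristane mice over the 5 weeks, against 7.70, 8.15, 8.33, 8.27 and 8.71 in untreated mice. Its second probe set, with a mean of 2.90, did not pass at weeks 2 to 12 and was lower at week 14 (-0.52, adjusted p = 0.0171).

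Mrps10, the homologue of S10, was lower at week 2, running from 3.61 to 5.70 (median 5.01) in pristane mice, against 4.86 to 6.25 (median 5.92) in untreated mice (-0.94 ± 0.26, adjusted p = 0.0246). All pristane arrays were below the untreated median and 2 were below every untreated array. Mrps34, a mitochondria-specific small-subunit protein, was lower at week 8, running from 4.07 to 5.67 (median 5.18) in pristane mice, against 5.38 to 6.75 (median 5.92) in untreated mice (-0.89 ± 0.26, adjusted p = 0.0485). Its call sat at the threshold and was lost in 10 of 16 fits that left out 1 array. It held only without pristane replicate 1, 3, 5 or 6 or untreated replicate 2 or 7 (adjusted p up to 0.150 in the others). That of Mrps10 at week 2 was lost without pristane replicate 6 or 8 or untreated replicate 5 or 6 (adjusted p up to 0.0952). That of Mrpl33 at week 4 was lost without pristane replicate 2, 3, 5 or 6 or untreated replicate 8 (adjusted p up to 0.103), while Mrpl33 passed in all 16 fits at weeks 2 and 8.

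The counts of members at these weeks were small beside few calls overall. They were 1 higher and 1 lower at week 2 (all genes 2.29% higher and 1.29% lower), 1 higher and 0 lower at week 4 (2.18% and 0.801%), 1 higher and 1 lower at week 8 (1.85% and 0.778%) and 0 at week 12 (2.7% and 1.06%). At week 12 limma gave 12 members an unadjusted p under 0.05, 11 of them lower, where all genes had 7.32% lower and 7.88% higher. The largest t at that week towards lower signal was that of Mrpl9, with 4.62 to 6.60 (median 5.40) in pristane mice, against 5.88 to 6.89 (median 6.16) in untreated mice (-0.78, adjusted p = 0.0655). At week 4 it was that of Mrps5, the homologue of S5 (-0.66, adjusted p = 0.102). The median difference over the members was -0.12, -0.22, -0.18, -0.20 and -0.22 at weeks 2, 4, 8, 12 and 14, and 46, 58, 62, 57 and 54 of 73 members were below 0. Over all genes 54.1%, 50.1%, 52.4%, 47.5% and 36.5% were below 0. Most members had a mean above 5, and the shares for genes that bright are not given here. At week 14 the median of genes above 5 was below 0 and that of all genes above 0, so all genes are an uneven comparison. In the pathway lists, Lrpprc, which stabilises mitochondrial mRNAs, was higher at week 2 (0.77, adjusted p = 0.00709), and the mitoribosome protein Ptcd3 and the synthetase Cars2 were lower at week 12 (-0.78, adjusted p = 0.0159, and -0.85, adjusted p = 0.0125).

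**Figure D4:**
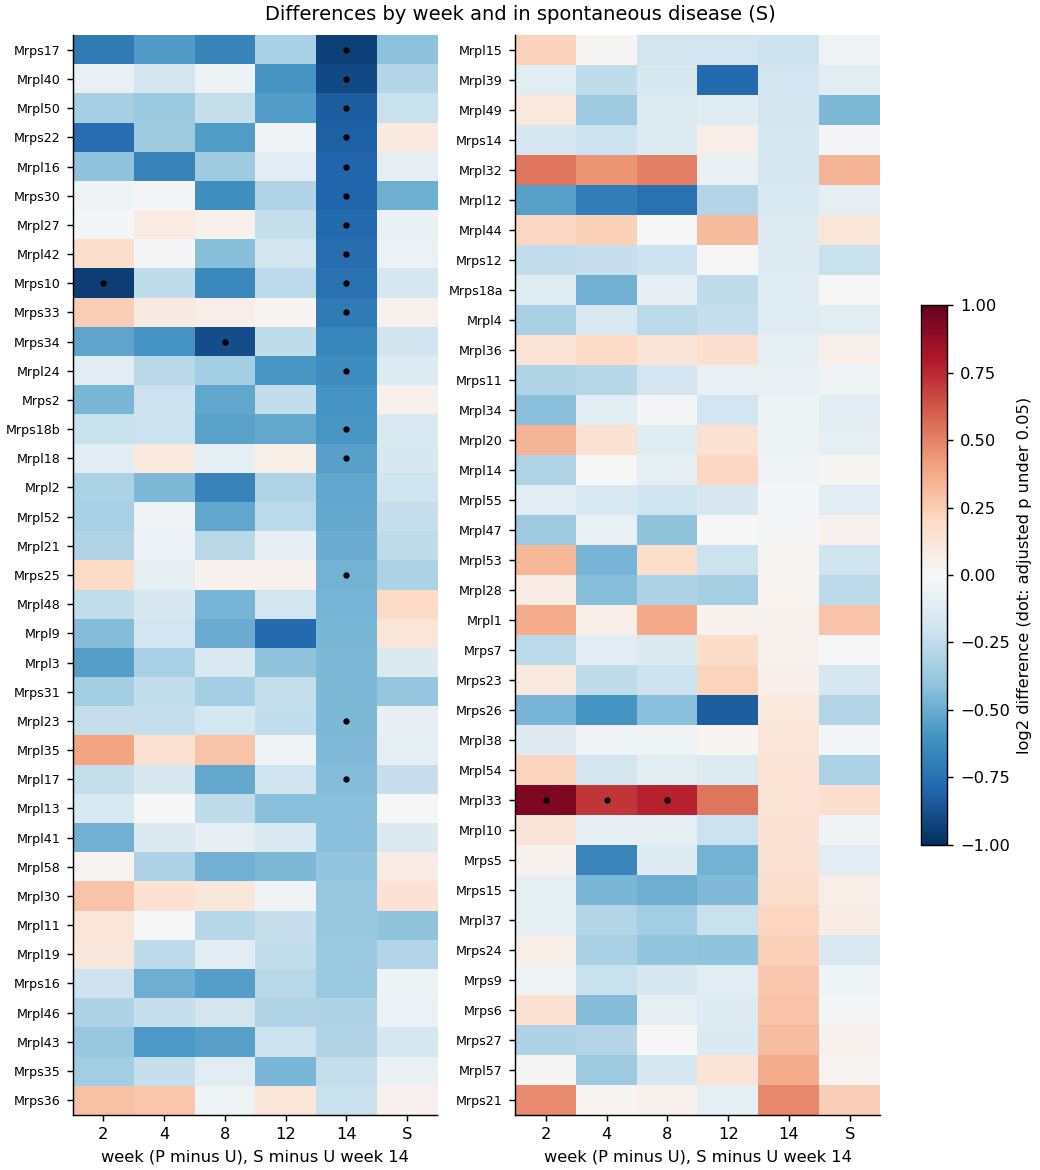
Log2 differences of the 73 genes, pristane minus untreated at weeks 2 to 14 and spontaneous disease minus untreated week 14 (S), in colour, ordered by the value at week 14, with dots at an adjusted p under 0.05. The dots lie mainly in the week 14 column, Mrpl33 has 3 dots at weeks 2 to 8, and the S column has none.

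The change of the pristane effect over time was tested as an interaction. From week 2 to week 14 it changed for 1 of 73 members, Mrps33 (all genes 2.67% towards lower and 4.19% towards higher). Its difference was -0.71 at week 14 and 0.25 at week 2, a change of -0.96 ± 0.24 (adjusted p = 0.00812), which passed in all 32 fits that left out 1 array. At week 2 Mrps33 ran from 7.73 to 8.14 (median 7.97) in pristane mice, against 7.16 to 8.07 (median 7.75) in untreated mice. From week 12 to week 14, limma called 0 members (all genes 1.28% towards lower and 0.877% towards higher at the same threshold). At an unadjusted p under 0.05 it gave 7 members, against 16.8% of all genes. The largest t there were those of Mrps33 (-0.73, adjusted p = 0.0822) and Mrps24 (0.64, adjusted p = 0.134).

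Spontaneous disease at week 36 was set against untreated mice of week 14, the same controls as above. No member passed in either direction, and neither did any of the 17097 genes (0% called), while 3 members and 3.47% of all genes had an unadjusted p under 0.05 with limma. The median over members was -0.09. The largest t towards lower signal was that of Mrpl11, with 7.81 to 8.79 (median 8.33) in spontaneous disease, against 8.34 to 9.10 (median 8.70) in untreated mice (-0.41, 95% CI -0.78 to -0.04). Towards higher signal it was Mrpl32, a homologue of L32 (0.34, 95% CI -0.16 to 0.84). Against the mean of the 5 untreated groups 1 member was higher, Mrpl33 (0.64, adjusted p = 0.0155), and 1.25% of all genes were higher and 0.164% lower.

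Pristane mice of week 14, the same arrays as in the comparison with untreated mice, were also set against spontaneous disease and had 5 lower members and 0 higher (all genes 4.42% lower and 5.59% higher). All 5 were of the mitochondria-specific class, which held 30 of the 73 members: Mrps33, Mrpl48, Mrps22, Mrpl42 and Mrpl50. All but Mrpl48 were also among the members lower against untreated mice on the same pristane arrays, and the classes were not compared by a test. Mrps33 ran from 6.74 to 8.19 (median 7.19) in pristane mice, against 7.45 to 8.60 (median 8.13) in spontaneous disease (-0.75 ± 0.17, adjusted p = 0.00146). Mrpl48, a large-subunit protein, ran from 5.96 to 7.03 (median 6.53) in pristane mice, against 6.86 to 7.65 (median 7.17) in spontaneous disease, with 6 pristane arrays below every array of the other group (-0.67 ± 0.19, adjusted p = 0.0169). The second probe set of Mrpl48 differed by 0.20 (adjusted p = 0.584), and with the mean of both sets the call was lost (-0.23, adjusted p = 0.328). Of the 3 further probe sets of these 5 members, 0 passed and 1 had a negative difference. Mrps22 ran from 4.40 to 5.98 (median 5.62) in pristane mice, against 5.69 to 7.17 (median 6.35) in spontaneous disease (-0.92 ± 0.28, adjusted p = 0.0236). The count ran from 3 to 10 when 1 array was left out, with 10 without spontaneous replicate 8, 8 without pristane replicate 5 and 3 without spontaneous replicate 1, 2, 3, 5 or 6 or pristane replicate 1 or 4. Mrps22 was lost without spontaneous replicate 1 or 3 or pristane replicate 1 or 7. These mice differed in age as well as in treatment.

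**Figure D5:**
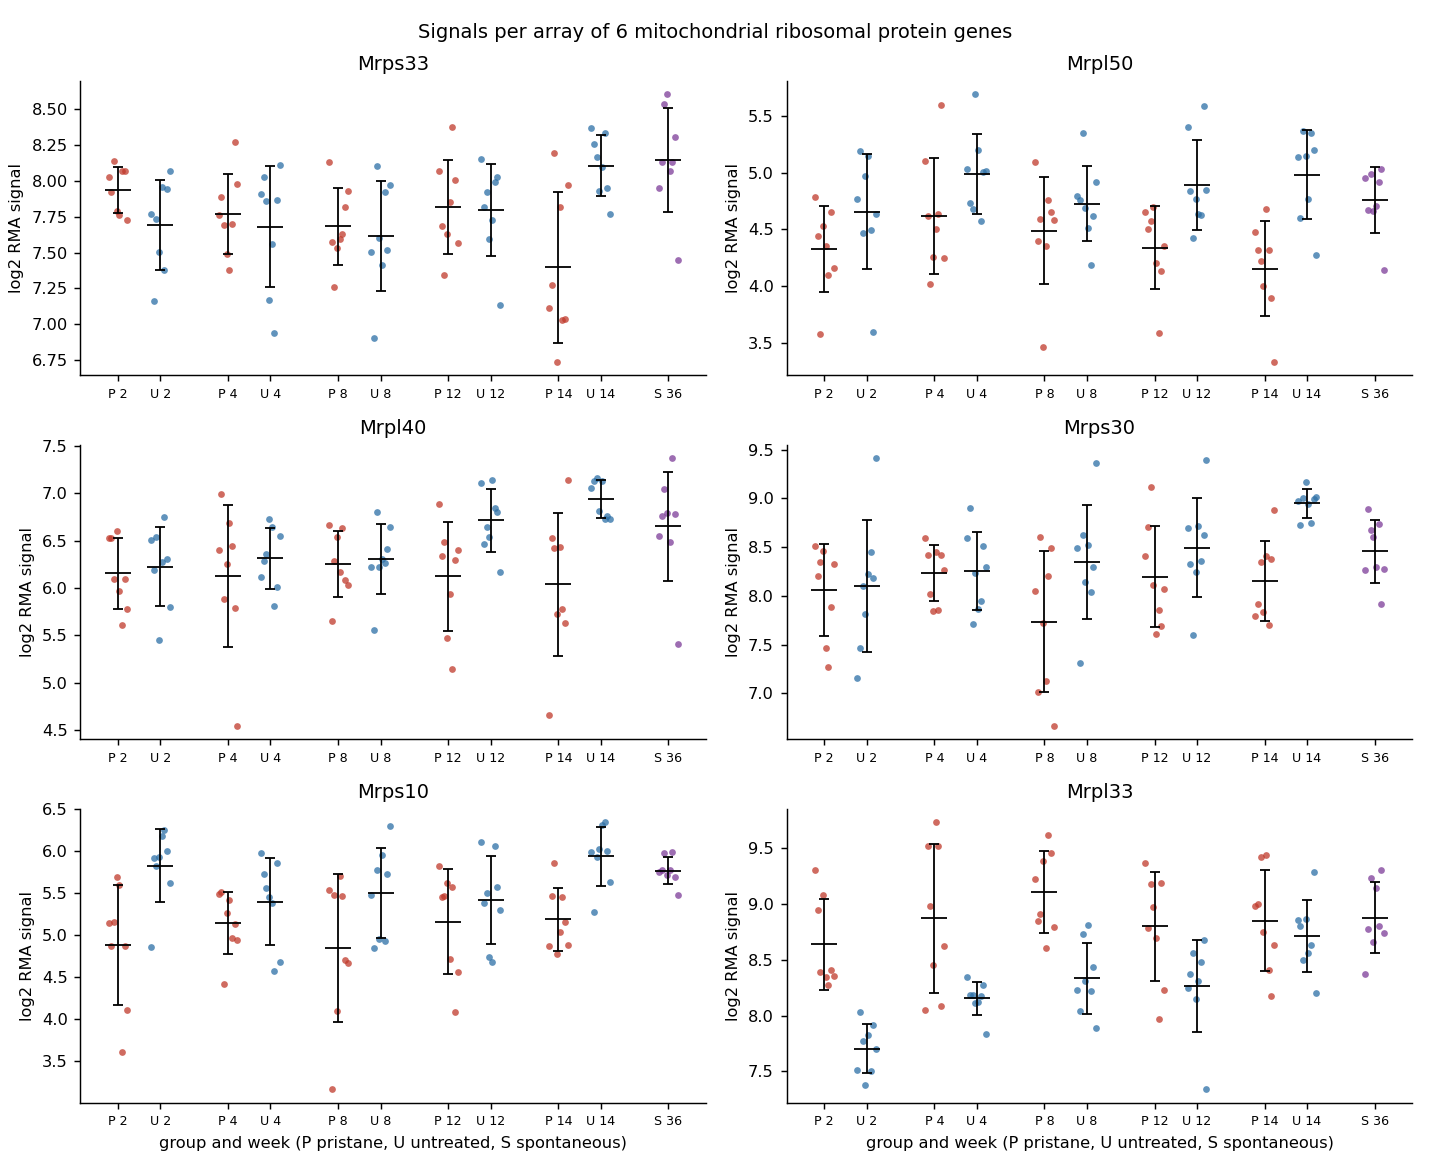
Log2 RMA signal on each array (points) with group mean and SD (bars) for Mrps33, Mrpl50, Mrpl40, Mrps30, Mrps10 and Mrpl33, by group and week. Mrpl33 is higher in pristane mice with no overlap at week 2, and Mrps33 passed the test against untreated mice at week 14, where 5 of 8 pristane arrays lie below every untreated array.

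Among the members, untreated mice alone gave no call over time. Between week 12 and week 2 limma called 0 members (all genes 0.0702% higher and 0.135% lower at the same threshold). At an unadjusted p under 0.05 it gave 10 members, against 13.1% of all genes. Between week 14 and week 12 it called 0 (all genes 0.0351% each way), with 9 members unadjusted, against 17% of all genes. The medians were 0.14 and 0.13. The largest t between week 12 and week 2 were those of Mrpl42 (0.67, adjusted p = 0.177) and Mrps7 (-0.44, adjusted p = 0.131), and between week 14 and week 12 those of Mrpl16 (0.66, adjusted p = 0.213) and Mrps21 (-0.55, adjusted p = 0.183). After group means were removed, pairs of members correlated at 0.171 on average over the 88 arrays, against 0.262 for cytosolic ribosomal proteins, 0.0743 for genes above 5 and 0.0054 for all genes, values that share arrays and their spread and carry no test.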

How the data were processed

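Blood RNA of female SNF1 mice was extracted with Trizol and columns, treated with DNase, amplified and labelled with NuGEN Ovation kits. It was hybridised to 88 Affymetrix HT MG-430 PM arrays, and the labels do not say whether arrays of different weeks share mice. The deposited values are log2 signals that the authors summarised by RMA, a method that corrects background, applies quantile normalization and combines the probes of a set. The deposited arrays still differed in interquartile range, from 2.74 to 3.78, and in median, from 3.78 to 4.01. RMA shrinks differences near background, and the number of arrays limits the precision. Groups were taken from the sample labels, and no column was left without a sample. Of 45141 probe sets, 104 controls were left out, 28898 had a single gene in the platform annotation, 551 had several and 15588 were not listed, which left 17097 genes. Where a gene had several such probe sets, the brightest on average was used. One model of 11 group means was fitted with limma 3.58.1 in R 4.3.3 (77 residual and 5.81 prior degrees of freedom), 2-sided, with Benjamini-Hochberg adjustment over 45037 probe sets per comparison and a threshold of 0.05. The code was tested on simulated data. p-values measure the spread between mice within groups.

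Alternatives were quantile normalization between arrays, a mean signal limit of 5, the replicate number as a block, the array interquartile range or an erythroid marker score as covariate, the mean of all probe sets of a gene, only the groups compared, other untreated controls, a 2-fold limit and leaving out each array. Named are the 10 members with the largest t per direction past the threshold at week 14, 3 elsewhere, the largest t in each direction where none passed, the members Mrps18a, Mrps18b, Mrps12, Mrps7, Mrpl12, Mrpl3, Mrps30 and Mrps36, members whose probe sets disagree and 2 pathway genes. The other 6 lower members at week 14, the remaining pathway genes named and the members called under covariates were named after their values were seen. The members and lists were chosen with earlier results of these data known.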

Additional observations from a re-analysis of the deposited data

Results flagged for a closer look

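Of 59 sets of 8 arrays examined for a single distant array, 6 had one, and chance flags about 1 in 20 groups. In untreated mice of week 14, the member mean of replicate 8 was 6.19, with the next array at 6.58, and its Mrpl42 signal was 5.81, with the next at 7.02. In the same group replicate 1 had the highest Mrps17 signal, 7.45, with the next at 7.22. In untreated mice of week 2, replicate 5 had a member mean of 6.62, with the next at 6.41, and replicate 1 had the lowest Mrps10 signal, 4.86, with the next at 5.62. In untreated mice of week 4, replicate 8 had the lowest Mrpl33 signal, 7.84, with the next at 8.12.

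The effect of pristane on Mrps33 differed between weeks 14 and 2 by -0.96 in the interaction test (limma, adjusted p = 0.00812), with -0.71 at week 14 and 0.25 at week 2.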

How the results depend on the processing

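Of 681 alternative values of the single named genes, 525 stayed on their side of the threshold, 156 no longer passed and 0 reversed. These values include the fits that left out 1 array, which moved less than the other settings. Among the 16 members lower at week 14, the calls stayed in from 3 of 11 other settings (Mrpl17) to 9 of 11 (Mrps33). Counts of members called (higher and lower together) moved by more than 1.5 times as follows, and the cause was not tested. Quantile normalization gave 2 at week 12, 9 at week 14 and 1 for the change of effect from week 12 to 14. A mean signal above 5 gave 4 at week 8, 3 at week 12, 4 for the change of effect from week 2 to 14 and 1 from week 12 to 14. The interquartile range as covariate gave 5 at week 2, 2 at week 4, 4 at week 12, 7 at week 14, and 4 for each change of effect. The erythroid score gave 1 at weeks 2, 8 and 12, 6 at week 14, and 4 and 1 for the changes from week 2 and week 12. The mean of probe sets gave 1 at week 12, and 2 and 1 for these changes. Fitting only the groups compared gave 0 at week 4, 1 at week 12 and 1 for the change from week 12. Untreated week 12 as control gave 3 at week 14, and the mean of the 5 untreated groups gave 1 in spontaneous disease. On its main probe set, no member passed a 2-fold limit in any comparison (0 at weeks 2, 4, 8 and 14, against spontaneous disease and for the change from week 2). Without the number 8 arrays, chosen after seeing the data for their low interquartile ranges, the counts were 1 at weeks 2 and 8, 5 at week 12, 11 for pristane week 14 against spontaneous disease, 1 for untreated week 12 against week 2, and 8 and 1 for the changes of effect. limma with a trend and a robust prior, also added after seeing the data, gave 15 at week 14.

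Replicate numbers are shared by the groups, and no label says that they pair mice. Of 8 same-numbered pairs, 1 to 4 correlated above 0.1 in 8 comparisons and 7 in pristane week 14 against spontaneous disease. These correlations ran from -0.242 (pristane against untreated, week 14) to 0.649 (untreated week 14 against week 12). Whether such pairs share a mouse or a batch was not tested. The number 8 arrays had the lowest mean interquartile range, 3.02, and the lowest mean member signal, 6.18, and the lowest member mean in 7 of 11 groups. With the replicate block the counts were 2 at week 4, 3 at week 12, 17 at week 14, 7 for pristane week 14 against spontaneous disease and 2 for the change of effect from week 2 to 14.

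Leaving out each array gave 1 to 2 members at week 2, 0 to 2 at week 4, 1 to 4 at week 8, 0 to 2 at week 12, 11 to 21 at week 14, 3 to 10 for pristane week 14 against spontaneous disease, 1 to 5 for the change of effect from week 2 to 14, 0 to 1 from week 12 to 14, and 0 to 0 in spontaneous disease and between untreated weeks. The count at week 8 was 4 without untreated replicate 2, that at week 12 was 2 without pristane replicate 1 or 3, and that for the change from week 2 was 5 without untreated week 14 replicate 8. The change from week 12 gave 1 without pristane week 14 replicate 3 or 8. Mrpl47, Mrpl54 and the second Mrpl33 probe set had means of 3.10, 3.54 and 2.90, below the median of all values, 3.89, which may limit what they can show. Mrpl50, at 4.63, lay above that median but lower than most members.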
